A study of Mus musculus with 6 samples.

Results

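The genes described here encode the digestive machinery of the lysosome and its proton pump. They are 41 genes taken by name from the 25722 genes of the series, and each name matched exactly 1 gene. They comprise 22 hydrolases, 9 membrane or lumenal proteins that are not enzymes, 7 subunits of the vacuolar proton pump (V-ATPase) and 3 transcription factors of the MiT/TFE family. RNA was sequenced from C57BL/6 mouse BMSCs, the adherent cells grown from bone marrow that the labels call BM-MSCs. There were 3 control libraries, from cultures given the solvent DMSO, and 3 libraries from cultures given all-trans retinoic acid (RA). The labels give 1 μM RA for 48 h, whereas the methods of the study give a lower dose and a shorter time. All 6 cultures shared low-glucose medium, 20% serum, 5% oxygen and 10 μM ROCK inhibitor, and none received IL-17 or IFNγ. The labels speak of fewer biological replicates than the 3 libraries per group, and do not tie libraries to animals, so the tests measure the spread between these libraries.

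Lysosomes break down proteins, sugars, lipids and nucleic acids in an acid lumen. The V-ATPase uses ATP to pump protons across the membrane: the cytosolic V1 sector holds the ATPase and the membrane V0 sector carries the protons. TFEB, TFE3 and MITF bind a short DNA element found near many lysosomal genes and are held in the cytoplasm when mTORC1 is active. Macrophages are rich in lysosomes, which digest what they engulf, and stromal cells hold them as well. RA acts through nuclear receptors and was compared with its solvent to learn which transcripts it alters.

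The libraries held between 14737636 and 18511905 counts, and levels are given as CPM, read counts scaled to a common library total by TMM. Before the TMM factors were applied, 3 counts were worth 0.162 to 0.204 CPM. The RA label was checked with Cyp26b1, a retinoid-degrading enzyme, which stood at 4.97, 5.96 and 4.68 CPM in controls 1 to 3 and at 124, 110 and 87.1 CPM in RA libraries 1 to 3. Markers of macrophages were abundant in every library, with Adgre1 (F4/80) between 4463 and 6379 CPM and all 14 listed markers together between 2.03% and 2.24% of the counts. The 12 listed mesenchymal stromal markers took 0.146% to 0.394%. Of these, Col1a1 reached 1648 CPM, Col1a2 1390, Cxcl12 578, Pdgfrb 140 and Prrx1 104 CPM. Eng reached 59.8, Vcam1 52.7, Ly6a 39.5, Pdgfra 24.3 and Lepr 9.48 CPM. Thy1 and Nt5e did not exceed 0.490 and 1.12 CPM. Listed markers of B cells, neutrophils, endothelial and erythroid cells, melanocytes and mast cells that were measured did not exceed 5.39 CPM in any library. Of 7 osteoclast markers, Calcr, Dcstamp, Oscar and Ocstamp did not exceed 1.96 CPM, whereas Acp5 reached 29.3, Nfatc1 87.2 and Mmp9 326 CPM. On the leading axis of variation the libraries did not part by treatment. In a principal component analysis of 1000 variable genes outside the lysosomal lists, the leading axis, with 57.3% of the variance, placed control 2, RA 1 and RA 2 (library set 1) apart from control 1, control 3 and RA 3 (library set 2). On the next axis, with 21.7%, controls 1 to 3 stood at -4.91, -27.0 and -5.45 and RA libraries 1 to 3 at -5.41, 25.5 and 17.2, so that RA 1 alone overlapped the controls. Neither the labels nor the study name a batch, and these sets were defined from the data, so differences between them are described without a test.

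All 41 genes passed the expression filter that kept 13842 genes, with no library at 0 and a lowest count of 47. In edgeR's quasi-likelihood test of RA against control, none reached an adjusted p under 0.05 with a 1.5-fold change, where 0.0433% of all genes tested did. The smallest adjusted p among them was 0.531. The log2 fold change was above 0 for 14 genes and below 0 for 27, with a median of -0.11 beside -0.02 over all genes tested. At an unadjusted p under 0.05, 1 gene was higher (Lipa) and 1 was lower (Cd63), where the shares over all genes were 2.89% higher and 2.36% lower. These were also the only genes of the 41 whose RA libraries did not overlap the controls, again 1 in each direction. Over all genes tested, 5.71% did not overlap with RA higher and 6.87% with RA lower. DESeq2 called 1 of the 41, Lipa, where it called 0.983% of all genes.

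**Figure D1:**
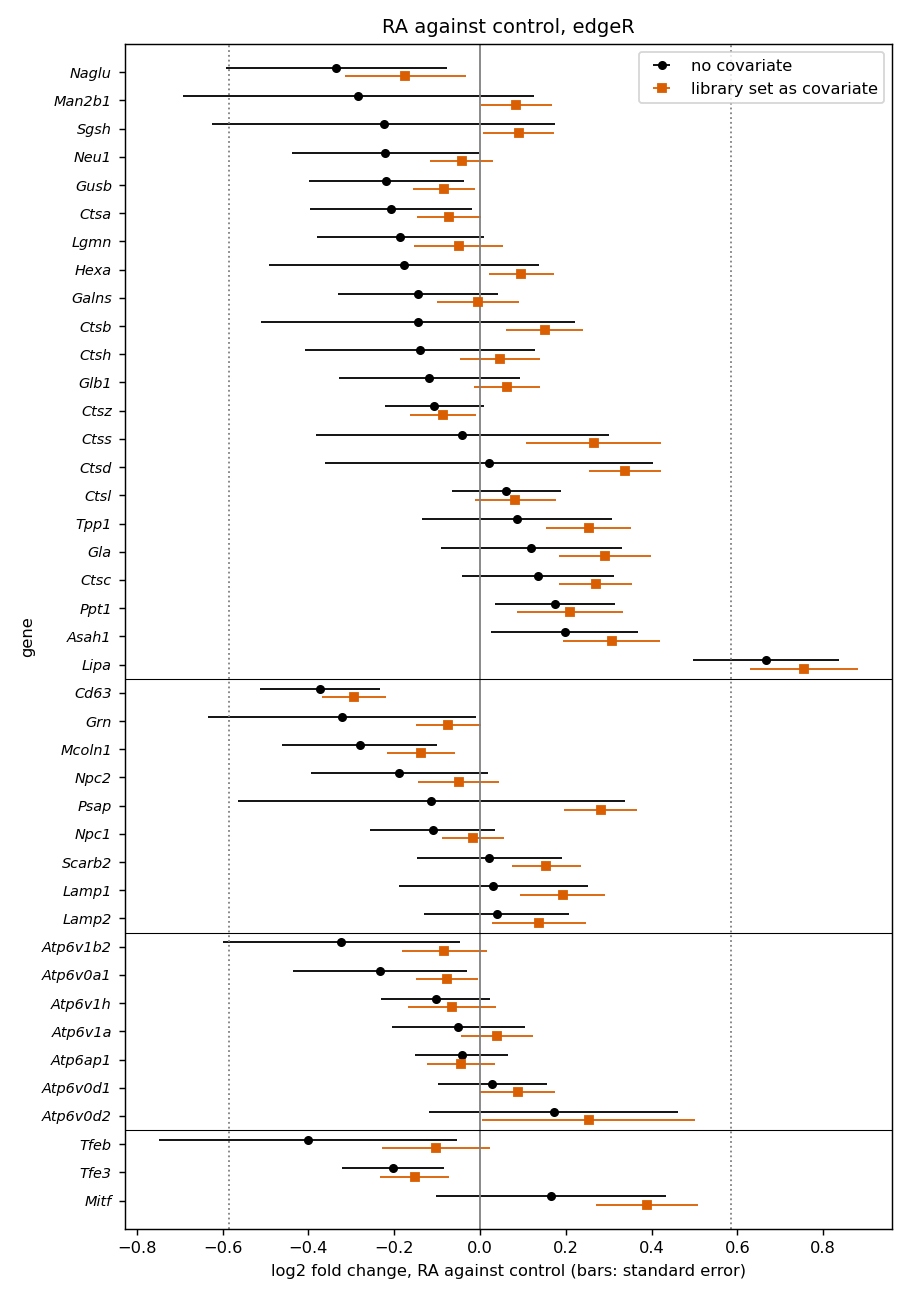
Log2 fold change of RA against control for each of the 41 genes (horizontal axis, bars show the standard error), from edgeR with no covariate (circles) or adjusted for the library set (squares). Dotted lines mark 1.5-fold in either direction and horizontal lines part hydrolases, membrane and lumenal proteins, V-ATPase subunits and MiT/TFE factors from top to bottom; Lipa alone lies beyond a dotted line, at 0.67 and 0.75.

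The libraries of set 2 carried more lysosomal transcript than those of set 1. For 30 of the 41 genes, control 1, control 3 and RA 3 were each above control 2, RA 1 and RA 2, whereas 24.4% of all genes tested showed that order. In the opposite order, with set 1 higher, stood 0 of the 41 beside 23.4% of all genes. The median log2 difference, set 1 minus set 2, was -0.43 over the 41 genes and -0.01 over all genes. By role, the order was seen in 17 of 22 hydrolases, 7 of 9 membrane and lumenal proteins, 3 of 7 V-ATPase subunits and 3 of 3 MiT/TFE factors. Leaving out each library in turn gave between 30 and 34 genes, beside 26.6% to 30.5% of all genes. With libraries scaled by their totals alone the number was 25, beside 19.7% of all genes.

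**Figure D2:**
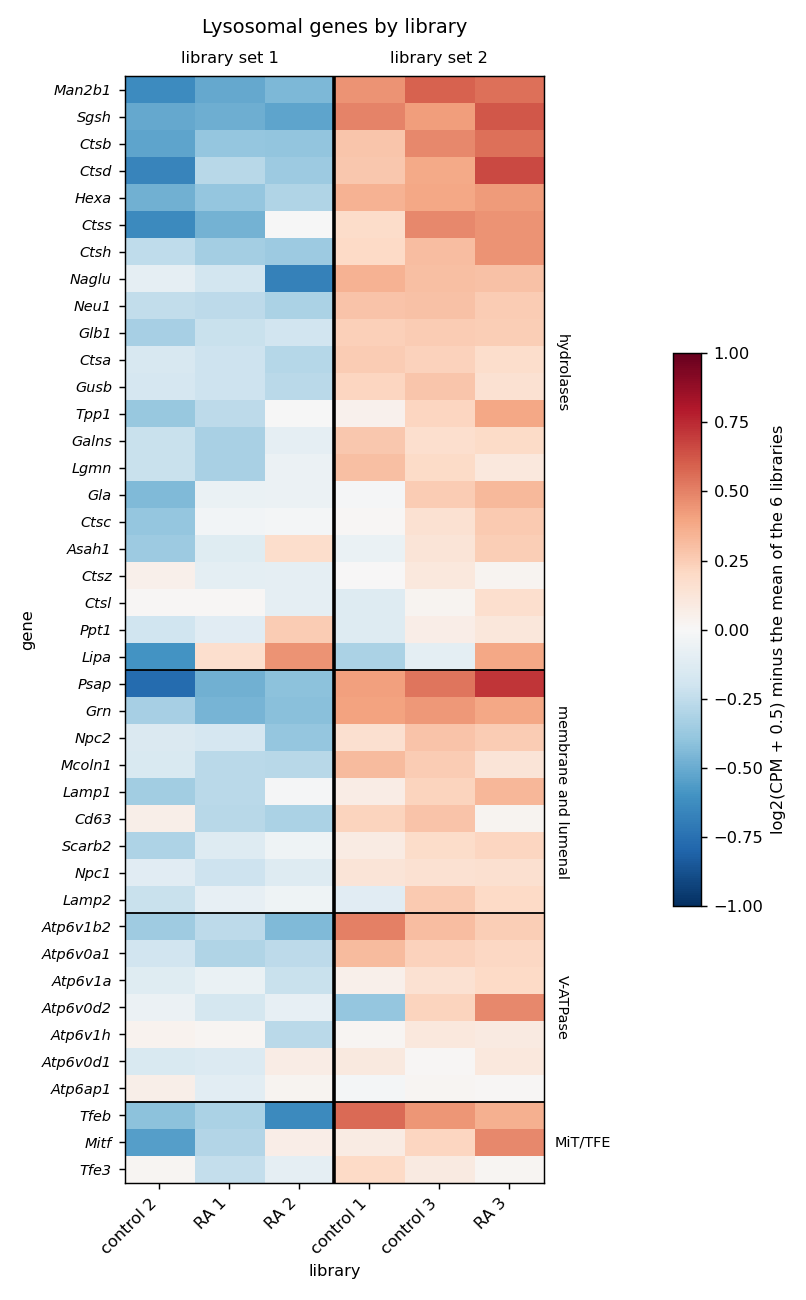
Heat map of the 41 genes (rows, by role) in the 6 libraries (columns, by library set), coloured by log2(CPM + 0.5) less the gene's mean over the libraries. The left columns are mostly blue and the right columns mostly red, while Lipa is blue in the 3 controls and red in the 3 RA libraries.

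Together the 41 genes took 3.02%, 2.00% and 3.24% of the counts in controls 1 to 3 and 2.24%, 2.28% and 3.52% in RA libraries 1 to 3. The lowest and the highest library thus lay in different treatment groups, and the groups overlapped. The summed level differed by -0.09 on the log2 scale, RA minus control, with an SD of 0.42 in the controls and 0.41 after RA. Within set 1, with 1 control, the difference was 0.15, and within set 2, with 1 RA library, it was also 0.15. Of the 14 macrophage markers, 10 had the same order between the sets, and 2, Fcgr1 and Lyz2, had the opposite order, beside 24.4% and 23.4% of all genes. Lyz2 averaged 9228 CPM in set 1 and 6083 CPM in set 2, whereas Adgre1 averaged 4676 and 5988 CPM. The summed share of these markers does not show such opposite orders. Of the 10 stromal markers tested, 5 were higher in every library of set 1 (23.4% of all genes) and 0 in every library of set 2 (24.4%). Of the 4 osteoclast markers tested, 3 were higher in every library of set 2 (24.4% of all genes) and 1, Mmp9, in every library of set 1 (23.4%). The 3 were Acp5, Nfatc1 and Ocstamp, the last at no more than 1.96 CPM. The part of cell composition in the lysosomal levels was not tested, and in such bulk samples fewer cells of a type and less RNA per cell cannot be told apart.

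**Figure D3:**
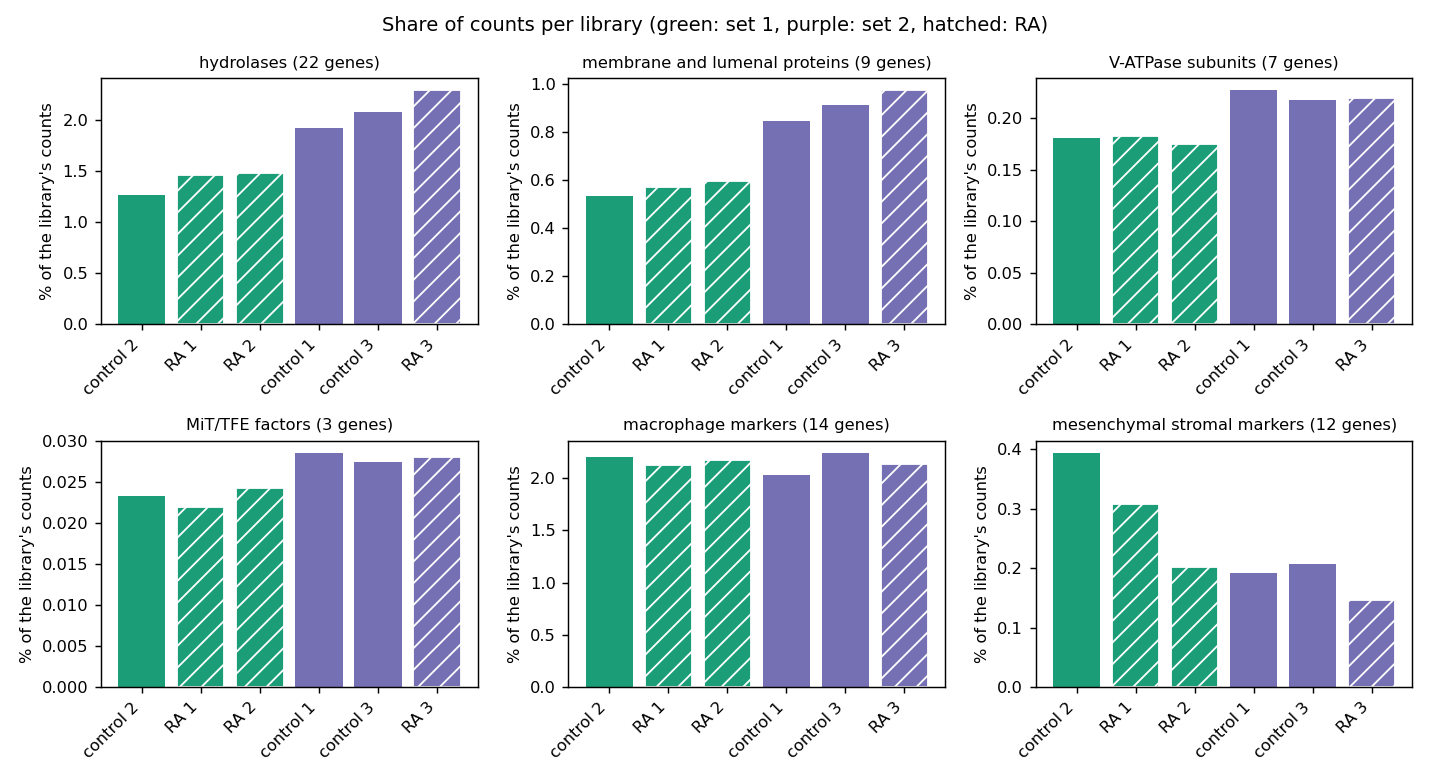
Percent of each library's counts on the 4 groups of lysosomal genes and on the listed macrophage and mesenchymal stromal markers (bars, 6 libraries by set, RA libraries hatched; each panel has its own scale from 0). Hydrolases, membrane and lumenal proteins, V-ATPase subunits and MiT/TFE factors are higher in all 3 libraries of set 2. The macrophage markers sum to between 2.03% and 2.24% in each library. Singly, 10 of these 14 are higher in every library of set 2 and 2 in every library of set 1. Stromal markers are highest in control 2.

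When the same edgeR fit took the library set as covariate, 1 of the 41 genes was called, again Lipa, where 1.54% of all genes were called. The median log2 fold change then stood at 0.06, beside 0.00 over all genes. Within both sets the RA level exceeded the control level for 19 genes, where 30.9% of all genes did so, and fell short of it within both for 12 genes, where 35% did. The hydrolases held 13 of those 19.

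Among the hydrolases, Lipa, which encodes lysosomal acid lipase and frees cholesterol and fatty acids from the esters that reach the lysosome, was the gene that parted the treatments. It lies at chr19:34492318-34527474 on the minus strand (GRCm38). It stood at 569, 468 and 662 CPM in controls 1 to 3 and at 797, 970.1 and 929 CPM in RA libraries 1 to 3. Every RA library was above every control. The means were 566 ± 96.8 and 899 ± 90.2 CPM (SD, n = 3 each), and the log2 fold change in edgeR was 0.67 with a standard error of 0.17 (1.59-fold, unadjusted p = 0.00645, adjusted p = 0.531). DESeq2 gave an adjusted p of 0.0363. Adjusted for the library set, the edgeR estimate was 0.75 with a standard error of 0.13 and an adjusted p of 0.0323. The difference was 0.91 within set 1 and 0.60 within set 2. Leaving out control 1, control 2, control 3 or RA 3 raised the adjusted p of the edgeR fit with the covariate to 0.192, 0.452, 0.0969 and 0.0987, whereas leaving out RA 1 or RA 2 gave 0.0348 and 0.000759. Lipa overlapped no other annotated gene, and its levels overlapped between the sets (set 1 minus set 2, 0.02 on the log2 scale). As set 1 holds 1 control and set 2 holds 1 RA library, this value also carries the treatment difference. The sequence upstream of its RefSeq start is shown because it belongs to the one gene of the group that was called under any fit. It holds none of the motifs searched below.
Lipa, chr19:34527475-34527724, minus strand, GRCm38.p6: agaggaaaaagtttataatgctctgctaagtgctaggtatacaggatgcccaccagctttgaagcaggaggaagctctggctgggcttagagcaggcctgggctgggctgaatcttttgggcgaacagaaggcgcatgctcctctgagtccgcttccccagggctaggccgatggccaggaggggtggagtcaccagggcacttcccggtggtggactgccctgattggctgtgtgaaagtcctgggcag

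The hydrolases with the most transcript per kilobase of exon in the controls were Ctsd at 2153 CPM per kilobase, Ctsb at 825 and Lgmn at 619. Ctsd encodes cathepsin D, an aspartic protease of broad use in lysosomal proteolysis. It stood at 5825, 3060.0 and 6299 CPM in the controls and at 3988, 3771 and 7648 CPM after RA. The lowest control and both low RA libraries were those of set 1, and the treatment groups overlapped. Its log2 fold change was 0.02 with a standard error of 0.38 (edgeR, adjusted p = 0.991). Both within-set differences were 0.34, and the edgeR fit with the set as covariate gave 0.34 with a standard error of 0.08 and an adjusted p of 0.120.

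Ctsb, which encodes the cysteine protease cathepsin B, stood at 5495, 3149 and 6324 CPM in the controls and at 3462, 3444 and 6639 CPM after RA. Here too control 2 lay with RA 1 and RA 2. The log2 fold change was -0.14 with a standard error of 0.37 (edgeR, adjusted p = 0.927), and it was 0.15 with the set as covariate. Lgmn encodes legumain, which cleaves after asparagine and cuts several cathepsins into their mature chains. Its levels were 1643, 1145 and 1523 CPM in the controls and 1068, 1284 and 1438 CPM after RA, with groups that overlapped (log2 fold change -0.19 ± 0.19 SE, edgeR adjusted p = 0.827). With the length of the longest coding transcript in place of all exons, Grn displaced Lgmn from the 4 genes that were highest per kilobase.

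Ctsl and Ctss encode cathepsins L and S, related cysteine proteases that process the invariant chain of MHC class II, cathepsin S in antigen-presenting cells. Ctsl stood at 443, 488 and 493 CPM in the controls and at 488, 454 and 544 CPM after RA, a narrow range that showed neither treatment nor set (log2 fold change 0.06 ± 0.13 SE, edgeR adjusted p = 0.910). Ctss stood at 567, 319.5 and 694 CPM in the controls and at 359, 498 and 680.1 CPM after RA. Control 2 and RA 1 were low, and RA 2 lay between them and the libraries of set 2 (log2 fold change -0.04 ± 0.34 SE, edgeR adjusted p = 0.980). The set 1 minus set 2 difference was -0.74 for Ctss and -0.04 for Ctsl, a difference between the pair that was not tested.

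The other 16 hydrolases lay between -0.33 (Naglu) and 0.20 (Asah1) in log2 fold change, all with overlapping treatment groups. The widest gap between the sets was that of Man2b1, the lysosomal alpha-mannosidase, at 700.5, 331 and 771 CPM in the controls and 358, 374 and 748 CPM after RA. Sgsh, the sulfamidase of heparan sulfate breakdown, stood at 99.9, 49.4 and 94.7 CPM in the controls and 50.4, 48.9 and 109.5 CPM after RA. In both genes, the control of set 1 lay with the RA libraries of that set (log2 differences between sets -1.06 and -1.03). Naglu, which acts on the same polymer, stood at 99.3, 73.3 and 96.0 CPM in the controls and 68.6, 48.7 and 95.7 CPM after RA. The beta-hexosaminidase subunit gene Hexa ranged from 405 to 761 CPM, with a set difference of -0.78. The glycosidase genes Glb1, Neu1, Gusb and Gla and the sulfatase gene Galns were each higher in every library of set 2. So were the protease genes Ctsa, Ctsc, Ctsh and Tpp1. These differences ran from 0.28 (Ctsc) to 0.64 (Ctsh) on the log2 scale. Besides Lipa and Ctsl, the hydrolases whose sets overlapped were Ctsz, an exopeptidase, Ppt1, which removes fatty acyl groups from proteins, and Asah1, the acid ceramidase. Reads of Ctsa cannot be told from those of Pltp on the opposite strand (476 CPM) if strand was not counted, nor those of Ppt1 from Cap1 (1143 CPM).

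**Figure D4:**
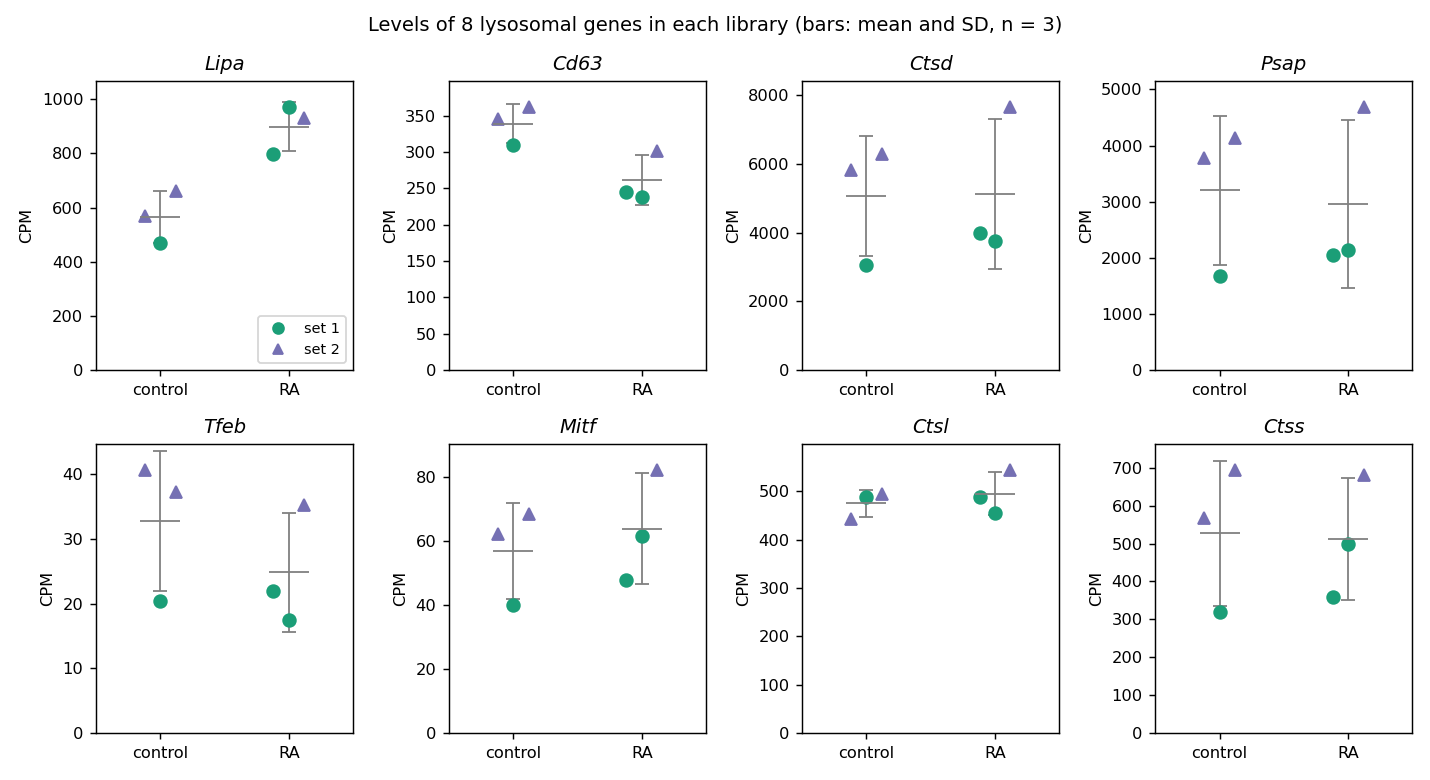
CPM of 8 lysosomal genes in each control and RA library (circles, library set 1; triangles, library set 2), with the mean and SD of the 3 libraries per group (grey); vertical axes start at 0. Lipa is higher and Cd63 lower in every RA library, Ctsd, Psap, Tfeb, Mitf and Ctss follow the library sets, and Ctsl varies little.

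Of the membrane and lumenal proteins, Cd63, a tetraspanin of late endosomes and lysosomes, was the one that parted the treatments. The gene lies at chr10:128900989-128912822 on the plus strand (GRCm38). It stood at 346, 309.6 and 361 CPM in the controls and at 245, 239 and 302 CPM after RA, so that each RA library was below each control, control 2 and RA 3 being close. The log2 fold change was -0.37 with a standard error of 0.14 (edgeR, unadjusted p = 0.0340, adjusted p = 0.795). With the set as covariate it was -0.29 with a standard error of 0.07 (edgeR adjusted p = 0.129), and within the sets it was -0.36 and -0.23.

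Psap encodes prosaposin, which is cut into the saposins that present sphingolipids to their hydrolases. At 1167 CPM per kilobase in the controls it was next to Ctsd among the 41 genes. Its levels were 3788, 1678 and 4139 CPM in the controls and 2046, 2149.6 and 4682 CPM after RA, the widest gap between sets of any of the 41 (log2 difference -1.10). The log2 fold change was -0.11 with a standard error of 0.45 (edgeR, adjusted p = 0.955), whereas within sets RA was higher by 0.32 and 0.24. Ctsd, Ctsb and Psap together made up 40.0% to 52.8% of the counts on the 41 genes.

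Mcoln1 encodes TRPML1, the cation channel that releases lysosomal calcium. It stood at 74.3, 53.4 and 70.9 CPM in the controls and at 49.3, 49.1 and 65.1 CPM after RA. Within the sets RA was lower, at -0.12 and -0.16 on the log2 scale, and the groups overlapped (log2 fold change -0.28 ± 0.18 SE, edgeR adjusted p = 0.795). Lamp1 and Lamp2, the main glycoproteins of the lysosomal membrane, differed little between treatments, at 0.03 and 0.04 in log2 fold change with standard errors of 0.22 and 0.17. Scarb2, an integral protein of the lysosomal membrane, stood at 0.02. Npc1 and Npc2, which export cholesterol from the lysosome, stood at -0.11 and -0.19, and Grn, the gene of progranulin, at -0.32. All 5 of Scarb2, Npc1, Npc2, Grn and Lamp1 were higher in every library of set 2, and Lamp2 was not.

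The V-ATPase subunits had a median log2 difference between the sets of -0.23, beside -0.43 for the hydrolases and -0.42 for the membrane and lumenal proteins. Atp6v0d1 and Atp6v0d2 encode alternative d subunits of the V0 sector, the first in most tissues and the second known from osteoclasts and macrophages. Atp6v0d1 stood at 217, 182 and 204 CPM in the controls and 184, 214 and 218 CPM after RA (log2 fold change 0.03 ± 0.13 SE, edgeR adjusted p = 0.961). Atp6v0d2 stood at 3.29, 4.25 and 5.29 CPM in the controls and 3.89, 4.18 and 6.41 CPM after RA (log2 fold change 0.17 ± 0.29 SE, edgeR adjusted p = 0.888). Neither gene parted the treatments or the sets. Per kilobase of exon, the control levels were 112 CPM for Atp6v0d1 and 1.58 CPM for Atp6v0d2, the lowest of the 41 genes. Atp6ap1, an accessory subunit, varied least of the group, from 298 to 335 CPM. The catalytic A subunit gene Atp6v1a ranged from 354 to 474 CPM. Atp6v1b2, the B subunit, had the largest difference between sets among the 7 (-0.71), at 838, 463 and 732 CPM in the controls and 492, 434 and 699 CPM after RA. Atp6v0a1, of the V0 sector, was also higher in every library of set 2, and Atp6v1h, a regulatory V1 subunit, was not.

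The MiT/TFE factors were transcribed at low levels per kilobase, 5.79 CPM for Tfeb, 19.4 for Tfe3 and 9.19 for Mitf in the controls. Tfeb stood at 40.7, 20.5 and 37.3 CPM in the controls and at 21.9, 17.4 and 35.2 CPM after RA. It parted by set (log2 difference -0.92), while the treatment groups overlapped (log2 fold change -0.40 ± 0.35 SE, edgeR adjusted p = 0.803), and was -0.10 with the set as covariate. Tfe3 stood at 192, 169 and 179 CPM in the controls and at 142, 158 and 169.6 CPM after RA. Of the RA libraries, RA 3 alone reached the range of the controls, just above control 2 (log2 fold change -0.20 ± 0.12 SE, edgeR adjusted p = 0.795). Mitf, known best from melanocytes and osteoclasts, stood at 62.3, 40.0 and 68.5 CPM in the controls and 47.8, 61.6 and 82.3 CPM after RA. Within the sets RA was higher by 0.44 and 0.33, with a log2 fold change of 0.17 and a standard error of 0.27 (edgeR, adjusted p = 0.880). The transcript level of these factors does not report their location in the cell, which was not measured.

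The element bound by these factors has the core TCACGTG, and its shorter form CACGTG is the general E-box. RefSeq promoters (GRCm38.p6, 250 bases before to 50 after the start) were matched for 33 of the 41 genes. TCACGTG was present on either strand in 11 of the 33 (33.3%), in 4.29% of 27025 genes with a promoter and in 6.98% of those that were also tested. CACGTG, which lies within TCACGTG, was present in 12 (36.4%) against 8.09% of all and 11.7% of those tested. TCATGTG, the M-box, was present in 7 (21.2%) against 4.31% and 2.67%. AGGTCA, a half-site of retinoid receptors, was present in 6 (18.2%) against 18.1% and 14.6%. The genes with TCACGTG were Ctsa, Ctsd, Gla, Glb1, Lgmn, Naglu and Sgsh among hydrolases, Lamp1 and Mcoln1 among membrane proteins and Atp6v0d1 and Atp6v1a among pump subunits. Of these 11 genes, 10 were higher in every library of set 2, as were 15 of the 22 genes without the motif, with median set differences of -0.44 and -0.43. The median log2 fold change of RA against control was -0.12 with the motif and -0.11 without it. Stretches that hold it are shown for 4 genes, with TCACGTG or its reverse complement in capitals (where both overlap, the first is marked), written along the gene.
Lamp1, chr8:13159096-13159160, plus strand: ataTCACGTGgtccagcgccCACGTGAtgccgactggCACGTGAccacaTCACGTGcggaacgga
Ctsd, chr7:142387910-142387936, minus strand: cgcccgcgtcTCACGTGacccgttgag
Naglu, chr11:101070010-101070036, plus strand: aaccttcaggTCACGTGgcccgaggtc
Mcoln1, chr8:3500463-3500489, plus strand: ggcgccccgcTCACGTGaccgcggcgc
The Lamp1 stretch ends just before the RefSeq start and holds 4 copies. The motif shown begins at position -99 from the start in Ctsd, -74 in Naglu and -46 in Mcoln1, and Ctsd and Mcoln1 each hold a further match, at positions -245 and -72. These are matches of letters, and binding was not measured.

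Further lysosomal genes were 109 on lists of hydrolases, membrane proteins, pump subunits, sorting proteins, TFEB and mTORC1 regulators and autophagy genes, of which 108 were found in the tables. Of these 101 were tested and 0 were called by edgeR, with 18 above 0 and 83 below 0 and a median log2 fold change of -0.10, beside 6549 above 0, 7293 below 0 and a median of -0.02 over all genes. With the library set as covariate the median was -0.01, and within both sets 31 genes were higher and 40 lower after RA, beside 30.9% and 35% of all genes. At an unadjusted p under 0.05 stood 1 gene, where 2.89% of all genes were higher and 2.36% lower. It was Hyal2, a hyaluronidase, at 37.5, 40.0 and 39.2 CPM in the controls and 31.5, 22.8 and 30.8 CPM after RA (log2 fold change -0.46, edgeR adjusted p = 0.795). DESeq2 and the edgeR fit with the library set as covariate also called 0 of them. The groups did not overlap for 7 genes with RA lower, beside 6.87% of all genes, and for 0 with RA higher, beside 5.71%. The next smallest p were those of Nagpa (log2 fold change -0.33), Plbd2 (-0.40), Spns1 (-0.40), Arsa (-0.31) and Rptor (-0.23). By library set, 63 of the 101 were higher in every library of set 2 and 9 in every library of set 1, beside 24.4% and 23.4% of all genes. Those 9 included Ctsk, the osteoclast collagenase, and the mannose 6-phosphate receptors M6pr and Igf2r.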

How the data were processed

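Each library's table holds raw counts of reads per gene, which the authors deposited without normalization. The submitters' processing notes name Bowtie2 2.2.3 and mm10, without a role, and the counting program and its use of strand are not given in the sources used here. All 25722 identifiers were found in GENCODE M21 (GRCm38), and 24 names turned into dates were restored. Groups came from the sample titles.

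In R 4.3.3, edgeR 4.0.16 (TMM, filterByExpr, quasi-likelihood F test, limma 3.58.1) compared 3 RA with 3 control libraries over 13842 genes, without covariates. Calls needed a Benjamini-Hochberg adjusted p under 0.05 and 1.5-fold. The standard error is the log2 fold change divided by the root of F. The submitters' replicate numbers did not pair the libraries. The alternatives were DESeq2 1.42.0, other scalings and filters, a replicate block, the library set as covariate and leaving out each library. The fits were also tested on simulated data.

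The genes, the lists and the library sets were chosen with earlier results of these data known. Full statistics were given, by rule, for genes with an unadjusted p under 0.05 or called with the covariate, the 4 highest per exon length, the MiT/TFE factors with Mcoln1, and the pairs Atp6v0d1 with Atp6v0d2 and Ctsl with Ctss. Man2b1, Sgsh, Naglu, Hexa and Atp6v1b2 were added after their values were seen. Intervals for counting error were not needed at these depths, and PCR copies are not independent molecules. With 3 against 3 libraries, an exact two-sided permutation test cannot go below 0.10.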

Additional observations from a re-analysis of the deposited data

How the results depend on the processing

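None of the 41 genes was called lower under any alternative run. The number called higher was 1, Lipa, with DESeq2, with the library set as covariate and at an unadjusted p with the same fold, and 0 under the other alternatives. With the covariate and 1 library left out it was between 0 and 1. Over all genes, 5 were called higher and 1 lower. DESeq2 called 98 and 38, the fit with the covariate 103 and 110, no filter on low counts 17 and 3, and an unadjusted p 295 and 196. Scaling by library size alone called 0 lower. Leaving out 1 library called between 0 and 6 higher and 0 lower, where without control 1 both were 0. The cause was not tested. The replicate block called 4 genes higher and 0 lower, and 0 of the 41. Same-numbered libraries correlated at -0.51, 0.34 and 0.57 in their deviations from the group means, so the numbers were not taken as pairs, and not every library correlated best with its own number.

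The median log2 fold change of the 41 genes reversed to 0.063 with the covariate and lay between -0.29 and -0.0053 with 1 library left out, at -0.26 without control 2 and -0.29 without RA 3. The summed level reversed to 0.15 as the mean of the within-set differences, and lay between -0.32 and 0.059 with 1 library left out. It was 0.0068 without control 1, 0.059 without control 3, 0.043 without RA 1 and 0.022 without RA 2. The covariate also reversed Ctsb to 0.15, Ctss to 0.27 and Psap to 0.28, and library size alone took Ctss to 0.0032. Leaving out 1 library reversed further log2 fold changes. The ranges were -0.53 to 0.062 for Ctsb, -0.38 to 0.21 for Ctsd, -0.013 to 0.12 for Ctsl and -0.30 to 0.21 for Ctss. They were -0.61 to 0.12 for Psap, -0.025 to 0.12 for Atp6v0d1, -0.086 to 0.35 for Atp6v0d2 and -0.059 to 0.36 for Mitf. Lipa lay between 0.56 and 0.79, and over its 13 alternatives the adjusted p ran from 0.0323 to 1.00. Cd63 stayed below 0 in all 13. The share of promoters was 18.2% for AGGTCA in place of 33.3% for TCACGTG. Of these, the covariate fit without 1 library, the within-set mean and AGGTCA were chosen after the data were seen. Set 1 held 1 control and set 2 held 1 RA library, so no spread between replicates of that treatment can be given within a set.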

Other observations

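Among lysosomal genes outside the 41, the gap between the library sets was wider still for some. Gpnmb, a glycoprotein of lysosome-rich macrophages and a target of MITF, stood at 1182, 289 and 1434 CPM in controls 1 to 3 and at 425, 417 and 1304 CPM in RA libraries 1 to 3. Laptm5, a lysosomal membrane protein of blood cells, stood at 1929.7, 668 and 1880.2 CPM in the controls and at 784, 1024 and 2044 CPM after RA. In both, control 2 lay with RA 1 and RA 2, and the log2 differences, set 1 minus set 2, were -1.81 and -1.26. Ctsk had the opposite order, at 11.5, 25.6 and 12.6 CPM in the controls and 18.8, 12.9 and 6.89 CPM after RA (0.87). These genes were chosen after their values were seen.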
